A study of Mus musculus with 6 samples.

Results

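Host genes of intronic miRNAs are protein-coding genes that carry a microRNA hairpin within an intron, so that a single primary transcript can give both an mRNA and a miRNA. The 10 genes described here were Pank1, Pank2 and Pank3 (miR-103 and miR-107), Ctdsp1, Ctdsp2 and Ctdspl (miR-26), Smc4 (miR-15b and miR-16), Nfyc (miR-30), Wwp2 (miR-140) and Copz1 (miR-148b). All probes that the platform annotation gives to these genes were taken, whatever their values. That gave 7 probes, 1 each for Pank1, Pank2, Pank3, Ctdspl, Smc4, Wwp2 and Copz1, of 17727 probes tested in all. Ctdsp1 appeared only on 1 probe that the annotation shares among several genes, so no value is given for it. No probe carried the name of Ctdsp2 or Nfyc in the annotation used here, and neither was analysed.

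RNA was taken from the dissected hearts of mouse embryos at embryonic day 11.5 and hybridised to single-colour CodeLink arrays, which carry 1 biotin-labelled sample each. In 3 mutant samples the Dicer gene had been inactivated by a Cre recombinase knocked into the Nkx2.5 locus, which is active in cardiac progenitors, and 3 control samples served for comparison. The sources used here do not give the genotype of the controls, the strain, or whether a sample was 1 embryo or a pool. The Cre acts in cells of the Nkx2.5 lineage, while the dissected heart also holds other cells and blood, so that fewer cells of a type and less RNA per cell cannot be told apart.

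A miRNA hairpin is cut out of the host transcript in the nucleus by Drosha with its partner Dgcr8, before Dicer acts. Dicer then cuts the exported hairpin in the cytoplasm into the short duplex whose strands enter Argonaute proteins. The mature strand finds its targets mainly through its seed, the bases next to its 5′ end, and lowers the stability and translation of the matching mRNAs. In human cells miR-103 and miR-107 are known to repress Dicer itself, and in zebrafish miR-26b is known to repress its own host, ctdsp2. The arrays were read for transcripts of the host genes and not for the miRNAs. Whether each probe lies in an exon or an intron was not analysed here. The annotation lists the Pank3 probe by an expressed sequence tag and the other host gene probes by RefSeq mRNAs.

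The mature miRNAs below show which host genes share a product. They come from the RefSeq table of mouse assembly GRCm38.p6, run 5′ to 3′, and have bases 2 to 8, the seed, in capitals.
mmu-miR-103-3p: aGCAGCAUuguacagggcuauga
mmu-miR-107-3p: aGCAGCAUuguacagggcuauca
mmu-miR-26a-5p: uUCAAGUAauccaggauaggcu
mmu-miR-26b-5p: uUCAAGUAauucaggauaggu
mmu-miR-15b-5p: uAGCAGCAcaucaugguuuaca
mmu-miR-16-5p: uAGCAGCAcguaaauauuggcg
mmu-miR-30c-5p: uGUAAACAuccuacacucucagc
mmu-miR-30e-5p: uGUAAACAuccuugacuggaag
mmu-miR-140-3p: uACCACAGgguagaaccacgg
mmu-miR-148b-3p: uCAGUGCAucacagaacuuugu

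Pank2 on chromosome 2 and Pank3 on chromosome 11 carry separate hairpins that give the identical miR-103-3p. Pank1 on chromosome 19 carries Mir107, whose 3p strand differs from miR-103-3p by C22G, counted from 1 at the 5′ end with the miR-107 base first. The 3 Pank genes therefore share the seed GCAGCAU. In the same way Ctdspl on chromosome 9 and Ctdsp2 on chromosome 10 carry hairpins with an identical miR-26a-5p, and miR-26b-5p of Ctdsp1 on chromosome 1 differs from it by U11C and U21C, the miR-26b base first. The seed of miR-15b and miR-16, AGCAGCA, holds 6 bases in common with that of miR-103 and miR-107, shifted by 1 position. By that annotation 11 hairpins lie inside the span of the other 9 genes, on the gene's own strand. Mir15b and Mir16-2 lie inside the span of Smc4, and the strand of Smc4 was not analysed here. Whether each lies in an intron or an exon was not tested here.

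The hairpins of Pank3 and Ctdspl, the members with the largest differences below, are printed with both mature strands in capitals. The lower-case stretch between the capitals is the loop that Dicer removes. Mir103-1 lies at chr11:35782396-35782481 on the plus strand and Mir26a-1 at chr9:119031796-119031885 on the plus strand, in GRCm38.p6.
Mir103-1: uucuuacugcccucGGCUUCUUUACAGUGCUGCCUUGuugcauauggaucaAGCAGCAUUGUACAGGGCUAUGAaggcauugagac
Mir26a-1: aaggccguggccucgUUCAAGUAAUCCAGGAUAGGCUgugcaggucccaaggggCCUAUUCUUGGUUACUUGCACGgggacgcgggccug

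The Dicer1 probe read 6.74, 6.73 and 6.68 (log2 normalized intensity) in mutant hearts, against 7.82, 7.63 and 7.71 in control hearts, without overlap. Its log2 difference was -1.005 ± 0.09 (SE, limma adjusted p = 0.036), past the threshold in 14 of 20 other settings. It missed the threshold without mutant 1, 2 or 3 and without control 1 or 2 (limma adjusted p from 0.0661 to 0.325). The size of its difference moved with the background correction, to -1.59 with the subtracted intensity and -1.61 with the authors' normalized intensity. Its position against the Cre-excised exons was not analysed here. All 13 cardiomyocyte markers that had a probe of their own (of 14 listed) were above background on at least 3 arrays. Between 74.1% and 78.2% of the 36227 spots on an array were above background. Control 3 stood apart from the other controls: on the first principal component (54.1% of the variance) it scored -20.8, beside -18.3 and -30.1 for mutants 1 and 2, while controls 1 and 2 scored 37.3 and 26.3. Mutant 3 was set apart on the second principal component, with 21.6% of the variance. Without mutant 3 the log2 differences were 0.18 for Pank1, 0.18 for Pank2, 0.70 for Pank3, 0.51 for Ctdspl, 0.27 for Smc4, -0.25 for Wwp2 and 0.12 for Copz1. Without control 3 they were 0.44, 0.12, 0.79, 0.42, 0.22, -0.30 and 0.052 in the same order of genes.

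Of the 7 host gene probes, 0 passed limma's test at an adjusted p under 0.05 over all 17727 probes. In that fit 9 probes passed in all, which is 0.0508% (0.0282% higher and 0.0226% lower in the mutant). At an unadjusted p under 0.05 there were 2 host gene probes, Pank3 and Ctdspl, both higher in the mutant, beside 6.75% of all probes that were higher and 3.26% that were lower at that level. Their groups did not overlap, with all mutant arrays above all control arrays, as in 9.89% of all probes. The mutant arrays lay below in 5.30%, so that 15.2% of all probes did not overlap. The log2 difference, mutant minus control, was above 0 for 6 of the 7 genes and below 0 for Wwp2, with a median of 0.15 over the host genes and of 0.011 over all 15012 genes. With 7 probes these counts describe the genes listed and no wider class.

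**Figure D1:**
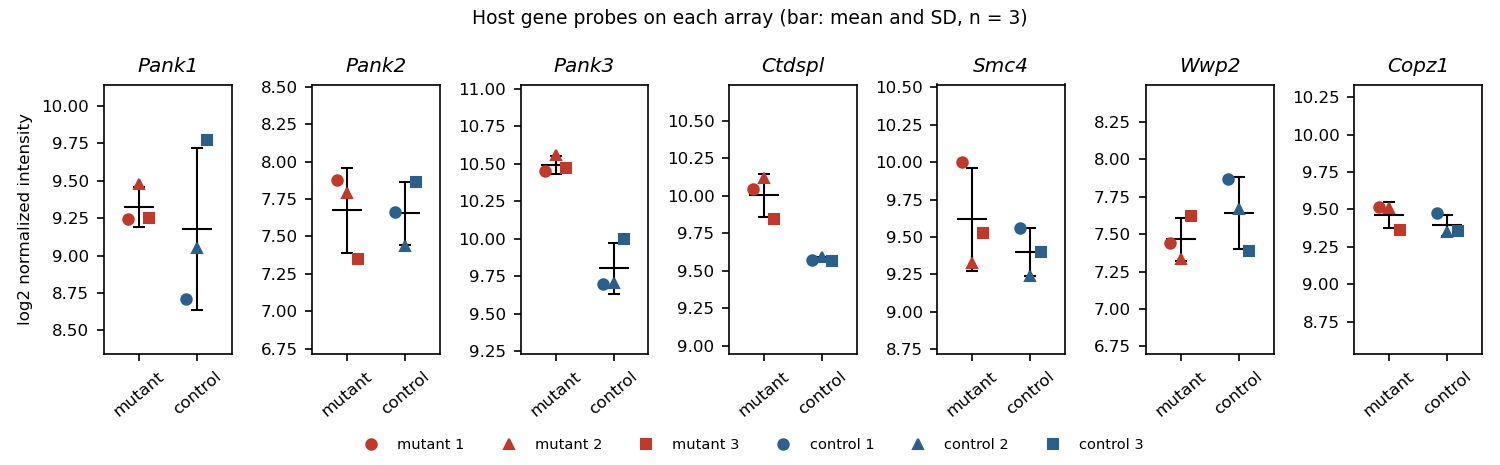
Log2 normalized intensity of each host gene probe on every array, with Dicer mutant hearts in red to the left of control hearts in blue in each panel, and the mean and SD of 3 arrays as a bar. The panels share the same width of scale, and the groups are apart in the panels of Pank3 and Ctdspl and overlap in the other 5.

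Pank1, Pank2 and Pank3 encode pantothenate kinases, which carry out the first and rate-limiting step of coenzyme A synthesis from vitamin B5. These enzymes differ in their location in the cell and their feedback inhibition. Pank3, the host of Mir103-1, was at 10.45, 10.56 and 10.47 on the log2 scale in mutant hearts 1 to 3, against 9.70, 9.71 and 9.997 in control hearts 1 to 3. The 3 mutant arrays lay close together above every control array, and control 3 was the highest control. The means were 10.49 ± 0.06 in mutant and 9.80 ± 0.17 in control hearts (SD, n = 3 each). The mutant level was 1.62-fold the control level (95% interval 1.34 to 1.95). Its log2 difference of 0.69 ± 0.11 (SE) had a limma adjusted p of 0.138, and its p ranked 72nd of 17727 probes.

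The same separation stood in the authors' normalized intensity, at 17.3, 19.7 and 18.4 in mutant hearts against 10.3, 10.3 and 12.7 in control hearts. The spot of Pank3 was 32.2 to 38.8 times its local background on mutant arrays and 18.5 to 22.8 times on control arrays. Among the 3 arrays whose titles start with the same code, mutants 1 and 2 and control 1, the difference was 0.80, a value that rests on 1 control. Without control 3 it was 0.79 with a limma adjusted p of 0.0448, and without mutant 3 it was 0.70 (0.142). With array weights it was 0.79 (limma adjusted p = 0.00396). That last setting called 4230 probes in all and gave control 2 a weight of 5.85, against 0.290 for mutant 3 and 0.324 for control 3.

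Pank1, the host of Mir107, was at 9.24, 9.48 and 9.25 in mutant hearts and at 8.71, 9.05 and 9.77 in control hearts. The controls spread more widely than the mutants, and control 3 was the highest of the 6 arrays. The log2 difference was 0.15 ± 0.26 (SE, limma adjusted p = 0.870), with a 95% interval of -0.48 to 0.77. It was 0.44 without control 3, -0.087 without control 1, and 0.65 among the arrays that share a title code. Pank2, the host of Mir103-2, was at 7.88, 7.79 and 7.35 in mutant hearts and at 7.67, 7.44 and 7.86 in control hearts. Here mutant 3 was the lowest array, and the groups overlapped. The difference of 0.020 ± 0.18 (SE, limma adjusted p = 0.974) had a 95% interval of -0.40 to 0.44, and it was 0.18 without mutant 3.

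Within each array the log2 ratio of Pank3 to the other Pank family members was compared between the groups, a comparison chosen after the values were seen. Pank3 minus Pank1 was 1.21, 1.08 and 1.22 in mutant hearts and 0.99, 0.66 and 0.22 in control hearts. Pank3 minus Pank2 was 2.57, 2.77 and 3.12 in mutant hearts and 2.04, 2.27 and 2.14 in control hearts. The Pank2 probe was dim and was lowest on mutant 3, the array with the highest ratio. Both ratios were higher on every mutant array than on every control array, by 0.55 and 0.67 on average. The difference of 0.55 was 0.35 without control 3 and 0.16 among the arrays that share a title code, where that of 0.67 was 0.63. Pank4, a family member with no listed miRNA, gave a log2 difference of 0.31 ± 0.12 (SE, limma adjusted p = 0.469), and the ratio of Pank3 to it was higher by 0.38. For each of these ratios the exact two-sided permutation test gave p = 0.1, adjusted p = 0.1 over the 4 ratios tested, the smallest that 3 against 3 arrays allow. Pank3 was already apart on its own, so these ratios are no separate support for its difference. The sizes of the ratios themselves mix the brightness of different probes and are not compared.

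The other genes of coenzyme A synthesis and use gave smaller differences. Of 9 tested members of that list of 11, with the 3 host genes among them, 0 passed in either direction by limma and 2 had an unadjusted p under 0.05, Pank3 and Pank4. Over all 15012 genes, 1008 were higher and 521 lower at that level, which is 10.2%. The median log2 difference of the list was 0.11, with 7 members above 0 and 2 below, in a range from -0.19 to 0.69.

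Ctdspl encodes a small phosphatase that removes phosphate from the C-terminal tail of RNA polymerase II and can be recruited by the repressor REST. Its probe was at 10.05, 10.12 and 9.85 in mutant hearts, against 9.57, 9.59 and 9.57 in control hearts. The controls lay within a narrow band, with an SD of 0.01, and mutant 3 was the lowest mutant. The means were 10.004 ± 0.14 in mutant and 9.58 ± 0.01 in control hearts (SD, n = 3 each), and the mutant level was 1.34-fold the control level (95% interval 1.14 to 1.59). The log2 difference was 0.43 ± 0.10 (SE) with a limma adjusted p of 0.235, and its p ranked 340th of 17727. It was 0.51 without mutant 3 (limma adjusted p = 0.134), 0.42 without control 3 (0.122) and 0.51 among the arrays that share a title code. Of 20 other settings, array weights alone called it (0.48, limma adjusted p = 0.00941).

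Ctdspl2, a relative of Ctdspl with no listed miRNA, gave 0.048 ± 0.11 (log2 difference ± SE, limma adjusted p = 0.901) on a dim probe. The within-array ratio of Ctdspl to Ctdspl2, also chosen after the values were seen, was 3.38, 3.53 and 3.49 in mutant hearts. In control hearts it was 3.12, 3.14 and 2.998, apart in all arrays (exact permutation p = 0.1). With Ctdspl2 nearly level, the ratio mostly restates the values of Ctdspl and is no separate support. In the list of related phosphatases and REST corepressors, 0 of 8 tested members passed by limma and 2 had an unadjusted p under 0.05, beside 10.2% of all genes. These were Ctdspl and Rcor1, a corepressor that binds REST, at 0.53 ± 0.14 (SE, limma adjusted p = 0.285). The median of the list was 0.12, with 6 members above 0 and 2 below.

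Smc4 is a core ATPase of condensin, the ring complex that compacts chromosomes in mitosis, and hosts Mir15b and Mir16-2. Its probe was at 9.999, 9.33 and 9.52 in mutant hearts and at 9.56, 9.24 and 9.40 in control hearts. Mutant 1 stood above the other 5 arrays, which overlapped. The log2 difference was 0.22 ± 0.19 (SE, limma adjusted p = 0.706), with a 95% interval of -0.23 to 0.67. Without mutant 1 it was 0.028 and without mutant 2 it was 0.36. Of 12 tested condensin and cohesin genes, 0 passed by limma, 1 had an unadjusted p under 0.05 (beside 10.2% of all genes), and 11 had a difference above 0, with a median of 0.21. Ncaph, a condensin subunit, gave 0.32 ± 0.12 and Smc3, a cohesin ATPase, 0.27 ± 0.12 (SE, limma adjusted p = 0.456 and 0.516).

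Wwp2, a HECT-type ubiquitin ligase of the Nedd4 family and host of Mir140, had the one negative difference. It was at 7.44, 7.33 and 7.62 in mutant hearts and at 7.87, 7.67 and 7.39 in control hearts. Controls 1 and 2 were the highest arrays, while control 3 lay among the mutants. The log2 difference of -0.18 ± 0.15 (SE, limma adjusted p = 0.704) had a 95% interval of -0.53 to 0.18, and it was -0.30 without control 3, -0.25 without mutant 3, -0.062 without control 1 and -0.48 among the arrays that share a title code. The spot was 3.94 to 4.46 times its local background on mutant arrays and 3.70 to 5.23 times on control arrays. With an offset of 16 in the background correction the difference was -0.21.

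Of the 9 Nedd4-family ligases tested, 0 passed by limma and 3 had an unadjusted p under 0.05, beside 10.2% of all genes. Of those 3, Hecw1 gave -0.45 ± 0.14 and Hecw2 -0.60 ± 0.23 (SE, limma adjusted p = 0.343 and 0.456). The value of Hecw2 is that of the brightest of its 3 tested probes, and the mean over its probes gave -0.31 (limma adjusted p = 0.311). The third was Smurf2, at 0.28 ± 0.11 (SE, limma adjusted p = 0.459). Hecw1 was above background on 4 arrays, and its difference was -0.75 with an offset of 16 and -1.26 with the subtracted intensity. Array weights called both Hecw1 (-0.32) and Hecw2 (-0.94).

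Copz1 encodes the zeta subunit of COPI, the coat of vesicles that return from the Golgi to the endoplasmic reticulum. Its probe was at 9.52, 9.51 and 9.36 in mutant hearts and at 9.47, 9.35 and 9.35 in control hearts. All 6 arrays lay within a narrow range and the groups overlapped. The log2 difference was 0.072 ± 0.09 (SE, limma adjusted p = 0.819), with a 95% interval of -0.15 to 0.30, or 0.900 to 1.23 times the control level. It was 0.045 without mutant 1, 0.12 without mutant 3 and 0.0090 with cyclic loess.

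Copz2, the paralogue of Copz1, hosts Mir152, whose mature strand has the seed CAGUGCA of miR-148b. It gave -0.29 ± 0.11 (log2 difference ± SE, limma adjusted p = 0.450), with 8.48 ± 0.09 in mutant and 8.76 ± 0.14 in control hearts (SD, n = 3 each), and the groups did not overlap. Of 8 tested COPI genes 0 passed by limma and 2 had an unadjusted p under 0.05 (beside 10.2% of all genes), Copz2 and the GTPase gene Arf1 at 0.23 ± 0.09 (SE, limma adjusted p = 0.473). The partners of Nfyc in the CCAAT-binding factor NF-Y had small differences: Nfya gave 0.11 ± 0.09 and Nfyb 0.030 ± 0.08 (SE, limma adjusted p = 0.700 and 0.915).

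**Figure D2:**
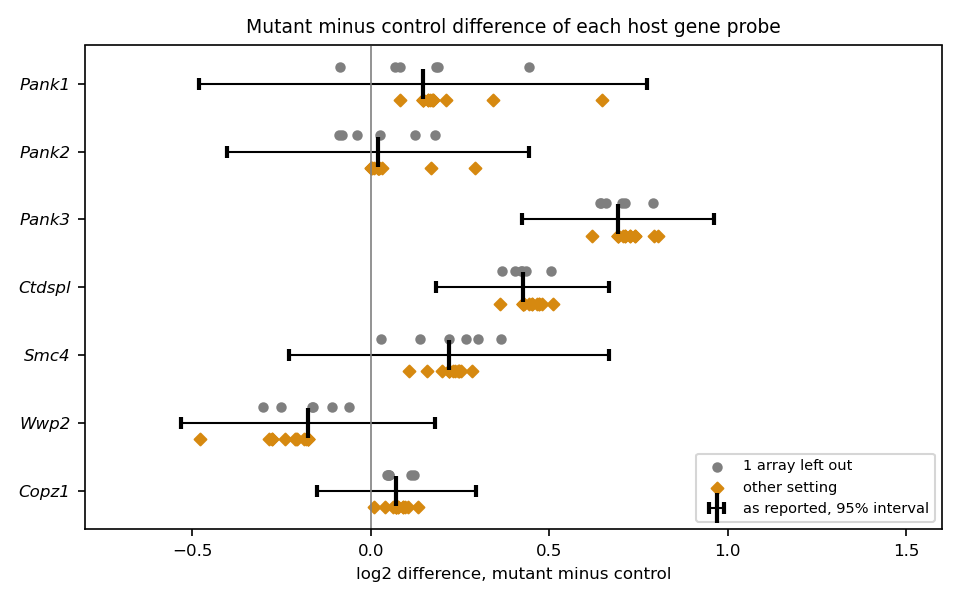
Log2 difference (mutant minus control) of each host gene probe, with the reported value and its 95% interval in black, 6 values with 1 array left out in grey and 14 other settings in orange. Pank3 lay between 0.62 and 0.80 and Ctdspl between 0.36 and 0.51 in all 20, while Pank1 and Pank2 crossed 0.

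**Figure D3:**
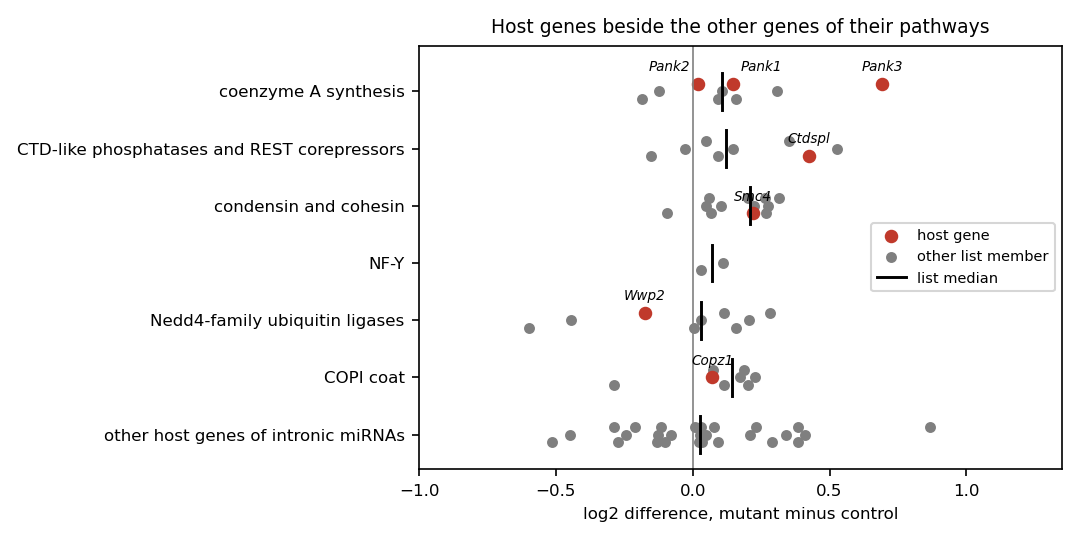
Log2 difference (mutant minus control) of the brightest probe of every tested gene in 7 lists, with host genes in red, other members in grey and each list's median as a black line. Pank3 at 0.69 is the highest member of the coenzyme A list, and the medians lie between 0.026 and 0.21.

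Other genes listed as hosts of intronic miRNAs were set beside the 10. Iars2 was among those listed, though in the RefSeq annotation Mir194-1 and Mir215 lie inside its span on the opposite strand. That annotation placed no hairpin inside the span of Ppargc1b or Lpp. The strand of Tln2, Arrb1 and Grid1 was not known. Of 33 such genes listed, 27 were tested, 0 passed by limma and 5 had an unadjusted p under 0.05, 4 higher and 1 lower in the mutant, which is 18.5% beside 10.2% of all genes. Their median log2 difference was 0.026, with 16 above 0 and 11 below. The smallest p values belonged to Ppargc1b and Rcl1. Ppargc1b, a coactivator of mitochondrial genes listed as a host of miR-378, gave 0.87 ± 0.23 (SE, limma adjusted p = 0.267). Rcl1, a ribosome biogenesis gene that hosts a copy of miR-101, gave 0.39 ± 0.12 (SE, limma adjusted p = 0.342). Ppargc1b was at 10.33 ± 0.47 in mutant and 9.46 ± 0.07 in control hearts (SD, n = 3 each).

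A wider list was drawn from RefSeq after the first results were seen: 450 protein-coding genes, other than the 10, with a miRNA hairpin inside their span on the same strand. Of its 369 tested genes 0 passed by limma, and 41 had an unadjusted p under 0.05, 32 higher and 9 lower, which is 11.1% of them, beside 10.2% of all genes. Their median was 0.031, and the groups did not overlap in 44 genes with the mutant above and 11 with the mutant below, beside 1460 and 826 of all 15012 genes. Of 40 tested genes with a hairpin on the opposite strand only, 1 passed by limma, beside 5 higher and 4 lower of all 15012 genes. At an unadjusted p under 0.05 there were 4 higher and 2 lower, which is 15%, beside 10.2% of all genes. The groups did not overlap in 5 genes with the mutant above and 1 with the mutant below. The gene that passed was the nuclear receptor gene Nr6a1, which spans Mir181a-2 and Mir181b-2. It was at 9.19 ± 0.12 in mutant and 7.85 ± 0.06 in control hearts (SD, n = 3 each, limma adjusted p = 0.036). Nr6a1 passed in 14 of 20 other settings and missed the threshold without any 1 array other than control 3 (limma adjusted p from 0.0594 to 0.317).

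Of the tested markers of cell types and of the cell cycle, 0 passed by limma. At an unadjusted p under 0.05 there were 3 cell cycle genes and 2 cardiomyocyte genes that were higher. Lower at that level were 1 cardiomyocyte, 1 erythroid, 2 endothelial and 2 cushion genes. Higher and lower together, they were 20% of the tested cell cycle genes, 23.1% of the cardiomyocyte and 10% of the erythroid genes. For endothelial genes the share was 25%, for cushion genes 33.3% and for epicardial genes 0%, beside 10.2% of all 15012 genes. Of 15 tested cell cycle genes, 13 had a difference above 0 with a median of 0.11. Their summed normalized intensity was 35519 to 39793 in mutant and 32982 to 34404 in control hearts, without overlap. The highest cell cycle sum was that of mutant 1, which was also the highest array for Smc4. Gene by gene, the groups were apart in 2 of the 15, with the mutant above, beside 1460 above and 826 below of all 15012 genes. Sums of the NF-Y genes (924 to 940 in mutant, 878 to 921 in control hearts) and of the opposite-strand genes (27896 to 28406, 23642 to 27705) did not overlap either. A sum weighs the brightest genes most. By the median over genes of the log2 level, centred on each gene's mean, the groups overlapped in each of these lists. Mutant 3 lay below control 3 for cell cycle genes (-0.018, 0.041) and NF-Y genes (0.0071, 0.020). For the opposite-strand genes mutant 1 (-0.0084) lay below control 3 (0.011). The 10 tested erythroid genes had 9 differences below 0 and sums of 115686 to 123836 in mutant and 123226 to 129211 in control hearts. The 8 endothelial genes had 7 below 0, with sums of 6927 to 8029 in mutant and 7988 to 8571 in control hearts. In 4 of these 8 genes the groups were apart, with the mutant below. Of the endothelial markers listed, Flt1 was above background on 0 arrays and Cdh5 on 1. The 13 cardiomyocyte genes had a median of -0.032, with sums of 171203 to 196512 in mutant and 154922 to 208991 in control hearts, the highest of them control 3. The 6 cushion mesenchyme genes had a median of -0.41 and the 5 epicardial genes one of -0.0039. The part of these markers in the differences of Pank3 and Ctdspl was not tested.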

How the data were processed

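Gene expression was measured in 3 Dicer mutant and 3 control hearts, 1 array each. The deposited array files give each spot's mean intensity and local background, and the authors' normalized intensity, which is the subtracted intensity divided by 1 factor per array, as checked on the values. The CodeLink assay is named in the labels' protocols; no source used here names the scanner or a genome build. Spots without a value were treated as missing. Of 36227 spots, 21880 are listed with a gene in the platform annotation and were normalized and tested. Spot means were corrected with normexp (offset 50), quantile-normalized and compared on the log2 scale with limma 3.58.1 in R 4.3.3 (lmFit, eBayes, two-sided, Benjamini-Hochberg over 17727 probes above background by the scanner flag on at least 3 arrays). The brightest tested probe stood for a gene in the lists. The number of arrays limits the precision. Nothing says that the samples came from separate litters, so p-values reflect sample-to-sample spread alone, some of it perhaps technical. The series' value table has column medians of 1.83 to 2.06, has no stated scale, and gave the authors' normalized differences for the host gene probes; it left 17649 probes to test. The members, lists and tests were chosen with earlier results of these data known; from each list, genes that passed or otherwise the 2 with the smallest p were named, together with Pank4, Ctdspl2, Nfya, Nfyb and Copz2; Smurf2 and Nr6a1 were named after their values were seen. The model was tested on simulated data with independent noise for each probe. That simulation held no differences between whole arrays, so it cannot show how the fit handles arrays that stand apart from their group. Alternatives covered background correction, normalization, filter, weights, blocks and single arrays left out.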

Additional observations from a re-analysis of the deposited data

How the results depend on the processing

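The limits are the 3 arrays a group, a single probe per host gene, and a title code that is only inferred to mark a slide. Of 140 values of the host gene probes in 20 settings, 132 kept their direction and their side of the threshold, 4 gained a call and 4 changed sign without one. The sign changes were Pank1 without control 1 and Pank2 without mutant 1, mutant 2 or control 2 (-0.081, -0.039 and -0.089). With 1 array left out Pank1 ranged from -0.087 to 0.44 and Pank2 from -0.089 to 0.18. Among 319 values of the other named genes, Ctdspl2 without mutant 1 (range -0.015 to 0.14 with 1 array left out) and Nfyb with cyclic loess (-0.033) changed sign; the cause was not tested. Quantile normalization over all spots and the family ratios were added after seeing the data, and the 4 ratios kept their direction in all 20 settings.

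Host gene probes called, 0 in the reported setting, were 2 with array weights, 1 with the title start as a block, and 0 to 1 with 1 array left out, the 1 being Pank3 without control 3. The host median of 0.15 moved to 0.29 with array weights and ranged from 0.045 to 0.22 with 1 array left out. The 9 probes called over the whole table became 5 with the subtracted intensity, 4 with the authors' normalized intensity, 5 with the series' value table, 5 with the mean of a gene's probes, 4230 with array weights and 1338 with the title start as a block. The fit with the title start as a block has 1 residual degree of freedom, from mutants 1 and 2, so its calls, those of Pank3, Dicer1, Nr6a1 and Hecw2 among them, rest on the spread of those arrays and a lone control. Leaving out 1 array gave 0 to 320, the 320 without control 3.

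Mutant and control samples share 3 numbers in their titles. The deviations of same-numbered samples correlated at 0.01, -0.48 and -0.38, so the numbers were not taken to pair the samples. With the replicate block on that number 0 probes passed (1322 at an unadjusted p under 0.05), and the limma adjusted p was 0.517 for Pank3, Dicer1 and Nr6a1 and 0.577 for Ctdspl, with the differences unchanged by construction.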
